A study of Rattus norvegicus with 48 samples.

Results

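The response of rat primary cortical cultures to Tat was followed in cultures that all carried tazemetostat, as the contrast of 3 Tat-Tazemetostat libraries with 3 Tazemetostat libraries, that is, 6 of the 48 RNA-seq libraries of the series. Every gene of the deposited expression table was eligible, and 15890 of 30211 genes passed the minimum of 0.5 CPM, the deposited normalised expression unit, in at least 3 libraries and were tested. The cultures were made from fetuses of Sprague-Dawley rats at 18 days of gestation, held neurons and glia together, and were used after 3 weeks in vitro. Tazemetostat cultures received 3 µM of the compound for 48 h. Tat-Tazemetostat cultures received the same compound together with 6 ng/mL of recombinant HIV Tat protein 1-86 for the same 48 h. Untreated cultures (Control, 3 libraries) and cultures given Tat without a compound (Tat, 3 libraries) showed the same step without tazemetostat. Cultures with senicapoc at 1 µM or amlexanox at 25 µM, each alone and with Tat, served as 2 further backgrounds of 6 libraries each. The comparison asks which genes responded to Tat while EZH2 was the target of an inhibitor, and whether that response differed from the one without it.

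Tat is the transactivator protein of HIV. It is released by infected cells, enters or binds neighbouring cells, and is known to activate microglia and astrocytes and to injure neurons. In glia the NF-kB pathway is a main route from such a stimulus to cytokines, chemokines and acute-phase proteins. Tazemetostat inhibits EZH2, the catalytic subunit of Polycomb repressive complex 2 (PRC2), which places a repressive methyl mark on histone tails and holds developmental genes silent.

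The 6 libraries held 19.3 to 26.7 M reads, as worked out from the smallest step between their values, so that 0.5 CPM stood for 9.35 to 13.2 reads. The labels call the cells neurons, whereas the libraries held a mixed culture: the astrocyte gene Gfap lay between 2874 and 6684 CPM in them, the myeloid gene Csf1r between 353.5 and 881 CPM, and the neuronal gene Map2 between 243.5 and 525 CPM. The T cell gene Cd3e was at 0 in these libraries, and the endothelial gene Cldn5 did not exceed 0.0448 CPM. One library stood apart within its group. Tat-Tazemetostat replicate 2 had the highest summed myeloid markers of its group (9120 CPM over 15 genes, against 3527 and 3977) and the lowest summed neuronal markers (1814 CPM over 18 genes, against 3130 and 4330), and the counts of calls in the gene groups that follow are therefore also given without it. Among the Tat libraries, replicate 2 had the same pattern. Its myeloid markers summed to 6779 CPM, against 4628 and 3296, and its neuronal markers to 2149 CPM, against 3800 and 3921. In bulk RNA, fewer cells of a type and less RNA per cell cannot be told apart. The labels number the replicates without saying whether they came from separate dissections. The p-values therefore measure the spread between libraries within groups, pooled over all 48 libraries, which may be technical.

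Tat changed 2554 of the 15890 genes under tazemetostat (16.1%; limma, FDR below 0.05), of which 1659 were higher (10.4%) and 895 lower (5.63%). The rises were larger than the falls. Among the raised genes 1056 moved less than 2-fold, 425 between 2- and 4-fold, 154 between 4- and 16-fold and 24 more than 16-fold, whereas the lowered genes fell into 740, 143 and 12 in the first 3 of these classes and none in the last. An exact permutation test of 3 against 3 libraries cannot go below p = 0.1, and 5044 genes (31.7%) had groups that did not overlap. In a limma fit to the compared libraries alone, 809 genes passed (634 higher, 175 lower). Without Tat-Tazemetostat replicate 2 the count in the main fit was 1022 (707 higher, 315 lower), and without Tazemetostat replicate 2 it was 1582 (1145 higher, 437 lower). Quantile normalization gave a total of 2539 but moved the split to 1349 higher and 1190 lower, and rescaling each library to one common sum gave 1355 and 1095.

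The promoters of 5 strongly raised genes are shown here because NF-kB and its partners act on sequences near the start of such genes. They are 5 of 9 raised genes whose promoters were read, and 5 of these 9 held a match to the kappaB consensus, 4 of them shown here. Each run covers the 250 bases before the RefSeq start of the gene on build GRCr8, 5′ to 3′ on the strand of the gene, and capitals mark matches to the kappaB consensus of 10 bases on either strand. Orm1, Cxcl6, Ccl20 and Lcn2 are 4 of the 12 genes with the largest rises, and Nfkbiz encodes a nuclear inhibitor-family partner of NF-kB. The positions are chr14:17596418-17596667 (minus strand) for Cxcl6, chr9:91836909-91837158 (plus) for Ccl20, chr3:36081781-36082030 (minus) for Lcn2, chr11:58251471-58251720 (plus) for Nfkbiz and chr5:81788259-81788508 (plus) for Orm1.
Cxcl6: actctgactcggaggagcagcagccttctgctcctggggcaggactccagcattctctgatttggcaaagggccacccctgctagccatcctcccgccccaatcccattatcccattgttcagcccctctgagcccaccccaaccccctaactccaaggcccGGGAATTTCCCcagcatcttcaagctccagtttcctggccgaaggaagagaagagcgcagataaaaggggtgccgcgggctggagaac
Ccl20: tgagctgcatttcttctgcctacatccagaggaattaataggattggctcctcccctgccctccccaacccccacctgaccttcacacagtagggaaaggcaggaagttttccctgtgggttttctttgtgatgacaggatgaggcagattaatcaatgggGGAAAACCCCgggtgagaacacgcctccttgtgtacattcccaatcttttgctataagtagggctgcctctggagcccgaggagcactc
Lcn2: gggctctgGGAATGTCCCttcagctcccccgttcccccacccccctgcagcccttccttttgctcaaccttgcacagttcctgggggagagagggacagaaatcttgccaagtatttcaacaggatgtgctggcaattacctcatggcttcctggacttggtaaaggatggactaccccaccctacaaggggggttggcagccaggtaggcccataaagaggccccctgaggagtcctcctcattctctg
Nfkbiz: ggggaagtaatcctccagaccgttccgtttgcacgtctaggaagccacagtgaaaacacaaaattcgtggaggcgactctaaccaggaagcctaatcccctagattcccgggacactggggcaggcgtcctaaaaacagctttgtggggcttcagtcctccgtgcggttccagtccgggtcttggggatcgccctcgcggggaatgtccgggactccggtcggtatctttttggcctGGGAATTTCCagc
Orm1: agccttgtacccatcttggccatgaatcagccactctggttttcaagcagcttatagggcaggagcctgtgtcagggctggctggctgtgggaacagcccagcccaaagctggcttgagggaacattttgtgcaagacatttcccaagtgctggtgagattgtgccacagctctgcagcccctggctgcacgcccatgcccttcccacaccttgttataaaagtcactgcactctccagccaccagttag
The Cxcl6 promoter held 2 matches that overlap by all but 1 base, 88 and 87 bases before the start. The promoters of Ccl20, Lcn2 and Nfkbiz held 1 match each, at 89, 242 and 13 bases before the start, and that of Orm1 held none. Over the genes with a single RefSeq promoter, the consensus was found in 151 of 1187 raised genes (12.7%), in 65 of 398 raised at least 2-fold (16.3%) and in 23 of 118 raised at least 4-fold (19.5%). It was found in 43 of 606 lowered genes (7.1%), in 905 of 10481 genes tested (8.63%) and in 6.33% of all 33469 promoters of the table. The paired interferon element, GAAA repeated after a gap of 2 bases, was in 4.89% of raised and 1.32% of lowered genes, against 2.66% of those tested. This element and those of AP-1 and STAT were searched on both strands. The AP-1 element TGANTCA was in 6.4% of raised genes, 10.6% of those raised at least 2-fold and 14.4% of those raised at least 4-fold, and in 4.46% of lowered genes, against 4.52%. The letters TATAAA, a control, were searched on the strand of the gene only, so their shares are not set against those of the other motifs. They also grew more frequent with the size of the rise, at 5.9%, 10.3% and 11.9%. Lowered genes had 6.77% and those tested 4.58%. A share that climbs in this way was thus not particular to the kappaB consensus. The STAT element TTCNNNGAA was in 6.66%, 6.28% and 5.08% of the same raised classes and in 5.94% of lowered genes, against 5.74%. A match of these letters is a description and not a binding site.

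The largest rise was that of Orm1, the acute-phase protein alpha-1-acid glycoprotein. Orm1 stood at 0.493, 0.567 and 0.351 CPM in the Tazemetostat libraries and at 334, 829 and 172 CPM in the Tat-Tazemetostat libraries. The groups were far apart, and the difference was 8.55 ± 0.62 (SE) on the log2(CPM + 0.5) scale, on which all differences here are given and which understates the change of low genes (FDR 2.11e-11). Lcn2, a secreted protein that binds bacterial iron carriers, rose from 296, 263 and 69.3 CPM to 7952, 11030 and 9011 CPM, a difference of 5.72 ± 0.79 (FDR 3.83e-06). Cfb, a protease of the alternative complement pathway, rose from 132, 219 and 162 CPM to 6172, 10780 and 6265 CPM (5.48 ± 0.54, FDR 8.36e-09). For both genes each Tat-Tazemetostat library lay far above each Tazemetostat library.

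The chemokine Cxcl13, which draws B cells, was at 0.179, 0.189 and 0.156 CPM without Tat and at 36.3, 142 and 75.7 CPM with it. Cxcl6, a chemokine for neutrophils, went from 0.493, 0.643 and 0.273 CPM to 65.5, 110 and 41.4 CPM, and Ccl20 from 0.672, 0.189 and 0.195 CPM to 44.5, 80.6 and 31.2 CPM. Ccl5 reached 122, 47.3 and 59.8 CPM from 1.08, 0.605 and 0.273 CPM. These 4 chemokine genes had differences of 5.88 to 6.77. The leukocyte protease inhibitor Slpi (6.18), the metalloreductase Steap4 (5.32), the itaconate-producing enzyme Acod1 (5.23), the MHC class II invariant chain Cd74 (5.17) and the interleukin-1 receptor antagonist Il1rn (5.16) completed the 12 largest rises. Acod1 varied most among the replicates, with 14.6, 98.1 and 9.69 CPM under Tat-Tazemetostat against 0.0448, 0.189 and 0.273 CPM under Tazemetostat. Leaving out Tat-Tazemetostat replicate 2, the Acod1 difference was 4.23 (FDR 0.00162).

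The 5 smallest FDR values belonged to Orm1, Retn, Cxcl13, LOC691143 and Ccl20. Retn, the gene of resistin, was at 0, 0.0189 and 0.039 CPM under Tazemetostat, no more than about 1 read, and at 4.19, 4.87 and 4.26 CPM under Tat-Tazemetostat (3.25 ± 0.25, FDR 4.85e-11). LOC691143 rose from 12.7, 13.1 and 15.2 CPM to 57.5, 97.1 and 62.9 CPM (2.33 ± 0.19, FDR 8.68e-11). Both were separated in all libraries.

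Among the falls the largest was Slco1c1, a transporter of thyroid hormone in astrocytes and vessels, at 12.1, 11.1 and 24.2 CPM under Tazemetostat and 1.06, 0.535 and 2.54 CPM under Tat-Tazemetostat (−3.17 ± 0.82, FDR 0.00685). Ntsr2, a neurotensin receptor of astrocytes, fell from 78.8, 196 and 133 CPM to 17.9, 9.84 and 27.2 CPM (−2.88 ± 0.43, FDR 1.4e-05). Gmnc, a regulator of multiciliated cells, fell from 11.1, 14.2 and 19.6 CPM to 1.92, 1.28 and 2.44 CPM (−2.69 ± 0.34, FDR 1.07e-06). As for the rises, groups that did not overlap were required by the choice of these genes. The others of the 12 largest falls were Cd209f, a lectin of border macrophages (−2.77), the sulfotransferase Sult1d1 (−2.62), angiotensinogen, Agt (−2.48), the crystallin Crybb1 (−2.35), the receptor Prlhr (−2.29), the neuropeptide genes Npvf (−2.27) and Hcrt (−2.22), Nkain4 (−2.16) and the Toll-like receptor accessory gene Tril (−2.06). When Tat-Tazemetostat replicate 2 was left out, Slco1c1 (−2.81, FDR 0.059) and Cd209f (−2.28, FDR 0.147) no longer passed the test.

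**Figure D1:**
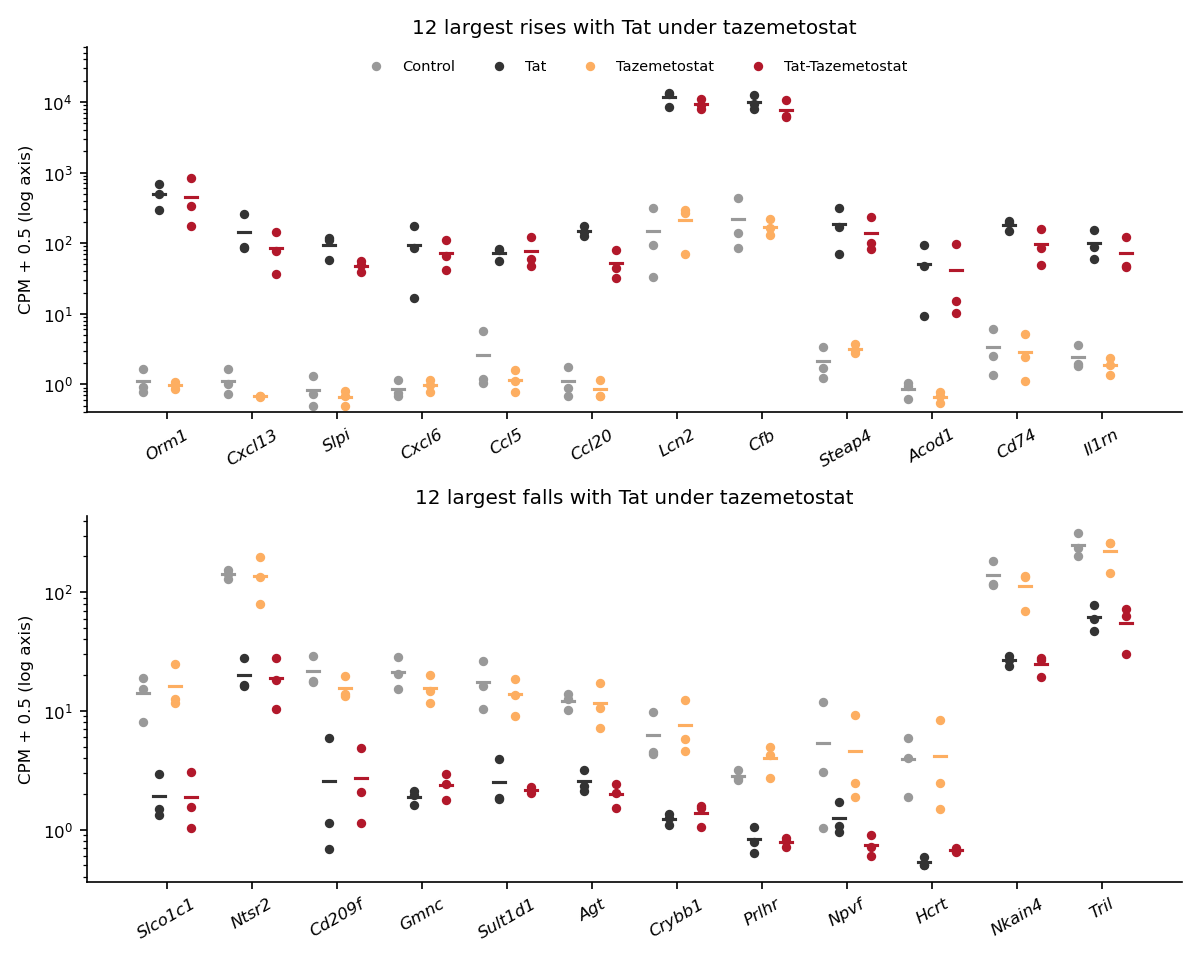
CPM + 0.5 on a log axis of the 12 genes with the largest rises (top) and falls (bottom) with Tat under tazemetostat, in the Control, Tat, Tazemetostat and Tat-Tazemetostat libraries. Each point is 1 library and each bar the mean of 3. The Tazemetostat and Tat-Tazemetostat points of each gene do not overlap, as the choice of these genes required, and the Tat and Tat-Tazemetostat points overlap in all genes but Slpi, Ccl20, Npvf and Hcrt.

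The gene groups below came from 36 lists of known pathway and cell type genes, of whose 778 entries 678 were tested. Counts of members are set against the 10.4% of all tested genes that rose and the 5.63% that fell, and medians against a median of 0.000319 over all genes. A low gene that passed the minimum through its Tat libraries had to rise, so the counts describe the lists.

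Of 23 chemokines tested, 19 were higher and 1 lower, with a median difference of 2.42. The lowered one was Ccl17, which did not exceed 0.586 CPM in the 6 libraries, close to the minimum for testing. Cxcl10, an interferon-induced chemokine, did not pass at 1.31 (FDR 0.369). It stood at 39.1, 35.4 and 9.91 CPM in the Tazemetostat libraries and 67.2, 51.3 and 63.2 CPM in the Tat-Tazemetostat libraries. There were 17 higher and 0 lower chemokines without Tat-Tazemetostat replicate 2. Of 23 cytokines, 10 were higher and 0 lower (median 1.04). Il1b, the gene of interleukin-1 beta, rose from 2.69, 3.4 and 3.12 CPM to 53.1, 125 and 33.3 CPM, a difference of 4.10 (FDR 4.73e-07), while Il18 (1.12, FDR 0.0568) did not pass. Of 33 cytokine and chemokine receptors, 13 were higher and 0 lower (median 0.74), among them Osmr, the oncostatin M receptor (2.81), and Csf2rb, the shared receptor subunit for interleukin-3 and its relatives (2.76). Without replicate 2 of Tat-Tazemetostat 7 cytokines and 6 receptors were higher.

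Signal transducers and their inhibitors followed. Of 21 genes in the list of NF-kB subunits and feedback inhibitors, 16 were higher and 0 lower (median 1.63). The list also holds genes that are neither, such as Sod2, Icam1 and Vcam1. Nfkbiz, whose promoter is shown above, rose from 17.4, 17.7 and 9.94 CPM to 150, 155 and 131 CPM (3.27 ± 0.31, FDR 3.86e-09), and the ribonuclease Zc3h12a (2.54), the NF-kB partner Bcl3 (2.24) and the mitochondrial superoxide dismutase Sod2 (3.68) rose too. Rela, the subunit that is regulated mostly outside transcription, did not pass (0.31, FDR 0.183). Of 25 JAK-STAT and MAPK feedback genes, 13 were higher and 0 lower (median 0.59), with the transcription factors Cebpb (1.96) and Batf (2.31) and the kinase Map3k8 (2.27) among them. The MAPK phosphatase Dusp16 did not pass (0.39, FDR 0.0682). Of 25 pattern recognition and inflammasome genes, 12 were higher and 0 lower (median 0.77), including the beta-glucan receptor Clec7a (2.53), the sensor Nod2 (2.15) and Tlr1 (2.83), whereas Tlr4 (0.83, FDR 0.101) and the inflammasome adaptor Pycard (1.12, FDR 0.0676) did not pass. These 3 lists had 13, 10 and 6 raised members without Tat-Tazemetostat replicate 2.

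Of 15 acute-phase and secreted defence genes, 12 were higher and 0 lower (median 2.68), with Orm1, Slpi, Lcn2 and Chi3l1 (3.98) as the leading examples and Lbp (1.14, FDR 0.141) below the threshold. Of 24 complement genes, 11 were higher and 2 lower (median 0.95). The complement inhibitor Serping1 rose by 3.25 and factor D, Cfd, was lower at −1.75, from 51.6, 65.7 and 67.2 CPM to 14.8, 21.3 and 18 CPM, while C1qc (0.73, FDR 0.22) did not pass. Of 12 genes in the MHC class II list, 9 were higher and 0 lower (median 2.25). The list also holds Ctss, Lgmn, Cd40, Cd80 and Cd86, which do not encode class II chains. The class II chain RT1-Da went from 0.404, 0.832 and 0.078 CPM to 20.8, 25.1 and 12.1 CPM (4.42 ± 0.48, FDR 5.31e-08). Of 19 MHC class I loading and immunoproteasome genes, 12 were higher and 0 lower (median 1.06), led by B2m, the common light chain, which rose from 1382, 1612 and 1230 CPM to 4854, 4477 and 4047 CPM (1.67, FDR 2.4e-06). RT1 genes have near-identical copies among which reads can be split, so their single values are uncertain. Of 32 interferon response genes, 16 were higher and 0 lower (median 1.18), with the transcription factor Irf7 at 3.52, Irf9 at 1.00 and Oas2 at 2.13 (FDR 0.0525) as one that did not pass. Without Tat-Tazemetostat replicate 2, raised members numbered 11 in the acute-phase list, 7 in complement, 7 in MHC class II, 8 in MHC class I and 6 of 32 in the interferon list.

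Of 20 phagocyte oxidase, actin and purinergic genes, 13 were higher and 0 lower (median 1.42). The nucleotide receptors P2ry2 (2.35), P2ry6 (2.39) and P2rx4 (1.01), the actin regulator Vasp (1.88), the kinase Fgr (2.60) and the phosphodiesterase Pde4b (1.52) rose. The list had 10 raised members without Tat-Tazemetostat replicate 2, and P2rx4 then stood at 0.74 (FDR 0.0755). Of 18 itaconate, nitric oxide and tryptophan enzymes, 7 were higher and 1 lower (median 0.67). Beside Acod1 these held Ptges, a prostaglandin E synthase (4.57), and the phospholipases Pla2g2a (4.35) and Pla2g4a (1.65). Pla2g2a was at 0, 0.0378 and 0 CPM in the Tazemetostat libraries, so its fold has no usable base. Of 22 matrix protease and adhesion genes, 9 were higher and 1 lower (median 0.73), among them the gelatinase Mmp9 (2.92). Mmp9 differed in its order from most genes here, with 32.4, 8.45 and 18.9 CPM in the Tat-Tazemetostat libraries and its lowest value in replicate 2. Leaving out Tat-Tazemetostat replicate 2, the enzyme list had 5 higher and 1 lower members and the matrix list 6 higher and 1 lower.

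The myeloid markers moved with these groups. Summed over 15 myeloid genes, of which 7 were called higher, the Tazemetostat libraries held 1714 to 2205 CPM and the Tat-Tazemetostat libraries 3527 to 9120 CPM. Lyz2, lysozyme, made up much of this, at 186, 150 and 176 CPM without Tat and 1022, 3532 and 1160 CPM with it. Csf1r, the receptor that defines microglia and macrophages, was at 392, 504.5 and 426 CPM without Tat and at 353.5, 881 and 434 CPM with it, groups that overlap, and its difference of 0.23 did not pass. Aif1, another microglial marker, went from 68.7, 121.7 and 77.25 CPM to 156.1, 478.5 and 188.4 CPM, and was not called. The myeloid gene Ptprc went from 35.01, 39.79 and 35.88 CPM to 59.56, 135.8 and 67.44 CPM. Both had groups that did not overlap, as did 31.7% of all genes tested. The part of these markers in the rises above was not tested. Of 12 homeostatic microglia genes 0 rose and 1 fell (median 0.15). Of 19 disease-associated microglia genes 6 rose and 0 fell (median 0.20), with Cst7 at 2.79 and Lpl, lipoprotein lipase, at 1.12. Without Tat-Tazemetostat replicate 2 the latter list had 3 raised members and Lpl stood at 1.03 (FDR 0.0552). Of 11 border macrophage genes 4 fell and 1 rose. The chemokine Pf4 (−1.81) and the scavenger receptor Stab1 (−1.39) were among those that fell, and the sialic acid receptor Siglec1 was the one that rose (2.29). Their sum was 1558 to 1691 CPM without Tat and 783 to 1493 CPM with it. Of 16 genes listed for granulocytes, T and B cells, 4 were expressed enough to be tested, and 2 of these rose, S100a8 (2.68) and Csf3r (2.64). Cd4 and Cd79b did not pass. The granulocyte genes S100a9 and Mpo did not exceed 0.0535 and 0.252 CPM in the 6 libraries, and Elane and Cd3e were at 0. When replicate 2 of Tat-Tazemetostat was left out, 3 myeloid genes rose, 0 border macrophage genes rose and 2 fell, Siglec1 (1.72, FDR 0.129) and Csf3r (2.10, FDR 0.0581) did not pass, and 1 homeostatic gene was lower.

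**Figure D2:**
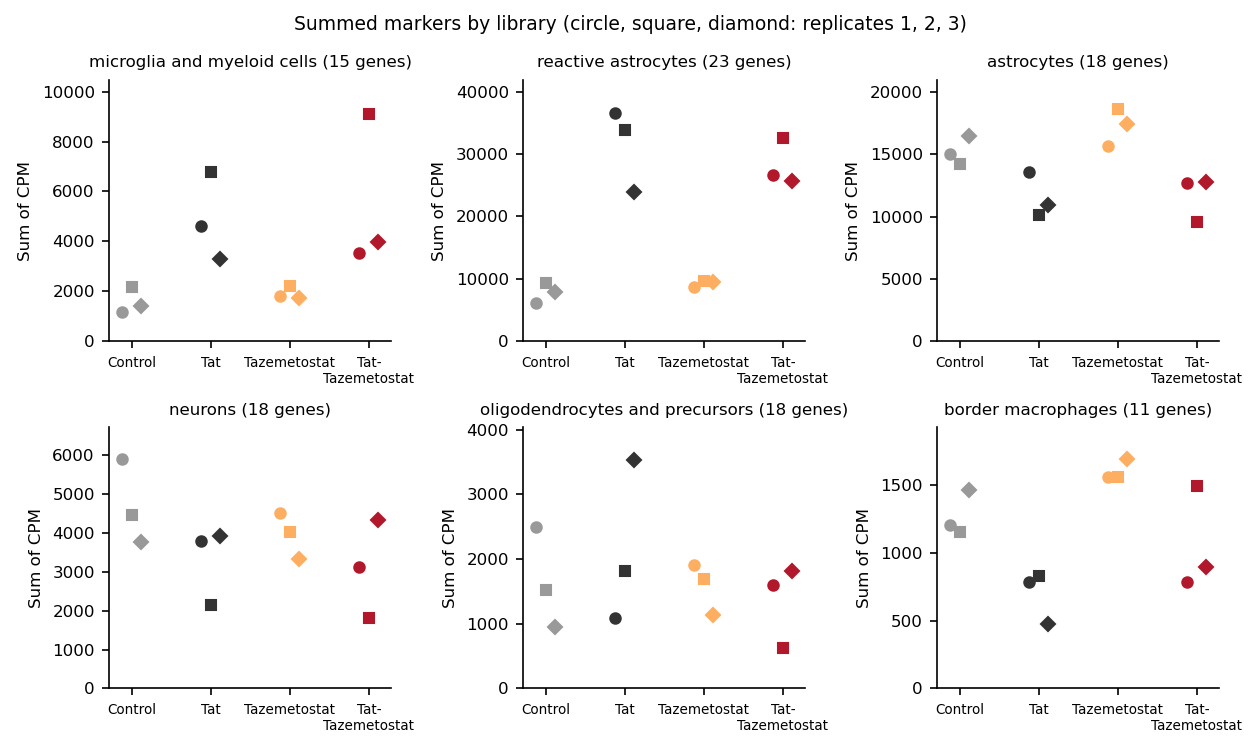
Summed CPM of 6 marker lists by library in the Control, Tat, Tazemetostat and Tat-Tazemetostat groups, with a separate marker shape for each replicate number. The myeloid and reactive astrocyte sums of the Tat-Tazemetostat libraries (3527 to 9120 and 25630 to 32510 CPM) lie above those of the Tazemetostat libraries (1714 to 2205 and 8637 to 9645 CPM), the astrocyte sums lie below them, and the neuronal sums overlap.

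Of 18 astrocyte genes, 9 were lower and 0 higher (median −0.43). The connexin Gja1 fell from 364, 615 and 641 CPM to 269, 206 and 234 CPM (−1.16, FDR 0.00332), the glycolytic isozyme Aldoc from 747.5, 1017 and 822 CPM to 433, 275 and 489 CPM (−1.14, FDR 0.000632), and the bicarbonate transporter Slc4a4 by 1.04 on the log2 scale. These groups did not overlap. The water channel Aqp4 (0.21, FDR 0.375) and the glutamate transporter Slc1a3 (−0.26, FDR 0.251) did not pass. Of 23 reactive astrocyte genes, 12 were higher and 1 lower (median 1.31). Beside Lcn2, Steap4, Serping1 and Osmr these held Timp1, a metalloproteinase inhibitor (2.27), and Cd44, a hyaluronan receptor (1.76). Leaving out Tat-Tazemetostat replicate 2 gave 5 lower astrocyte genes, and 10 higher and 1 lower reactive astrocyte genes.

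Of 18 neuronal markers 0 were called (median −0.40), and their sum was 3329 to 4519 CPM without Tat and 1814 to 4330 CPM with it. Map2, a dendritic protein, was at 518, 495 and 525 CPM in the Tazemetostat libraries and at 363, 243.5 and 441 CPM in the Tat-Tazemetostat libraries, groups that did not overlap (−0.60, FDR 0.0698). Without Tat-Tazemetostat replicate 2 the median over the neuronal markers was −0.04. Of 20 synaptic receptors 1 was lower, the GABA-B subunit Gabbr1 (−0.75, FDR 0.00848), which did not pass without replicate 2 (−0.49, FDR 0.155). Of 18 interneuron and neuropeptide genes 3 were lower and 1 higher. Calbindin, Calb1, fell from 144, 198 and 218.5 CPM to 75.6, 80.4 and 98.5 CPM (−1.12, FDR 0.0022), and parvalbumin, Pvalb, rose from 1.03, 1.1 and 0.39 CPM to 9.09, 12.8 and 3.91 CPM (2.67, FDR 0.000192). Of 14 immediate-early genes 1 was lower, Fos, which is taken up below. Of 18 oligodendrocyte lineage genes 0 were called (median −0.44), of 18 ependymal and cilium genes 2 fell (Gmnc and Rfx3), and of 16 endothelial, mural and fibroblast genes 2 fell, the contractile genes Acta2 (−1.91) and Tagln (−1.02). Both lost the call without Tat-Tazemetostat replicate 2 (Acta2 −1.55, FDR 0.116, and Tagln −0.98, FDR 0.0924), as did Rfx3 (−0.46, FDR 0.0524). Of the interneuron and neuropeptide genes 2 were then lower and 1 higher. The median of the oligodendrocyte lineage genes changed sign without this library, from −0.44 to 0.35.

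Of 21 cholesterol synthesis genes, 6 were lower and 0 higher (median −0.18), with the demethylase Cyp51 at −0.68 and the desaturase Sc5d at −0.62. Of 18 glycolysis genes, 4 were higher and 2 lower (median 0.04), with the hexokinases Hk3 (2.59) and Hk2 (1.09) and the regulatory enzyme Pfkfb3 (0.62) among the rises. Of 20 Nrf2 targets, 3 were higher and 2 lower (median 0.05). Heme oxygenase, Hmox1, rose (0.86), and Gclc, the catalytic subunit of glutathione synthesis, fell from 127, 153 and 186 CPM to 99.4, 97.2 and 101 CPM (−0.63, FDR 6.91e-05). Nqo1 (0.08, FDR 0.807) and Gstp1 (−0.06, FDR 0.921) did not pass. Of 15 ATF4 stress targets 2 were higher and 3 lower, with the stress factor Ddit3 at 1.40 and the serine synthesis enzyme Psat1 at −1.41. Of 13 heat shock and chaperone genes 1 fell, Hsp90aa1 (−0.39). Of 23 cell cycle genes, 7 were higher and 0 lower (median 0.88), among them the replication helicase subunits Mcm4 (0.88) and Mcm3 (1.06). Without Tat-Tazemetostat replicate 2, 1 cell cycle gene was higher and 2 cholesterol genes were lower. Glycolysis then had 3 higher and 0 lower members, the Nrf2 targets 1 higher and 2 lower, the ATF4 targets 1 of each, and the heat shock list 1 lower. Mcm3 (0.88, FDR 0.219), Hk2 (0.94, FDR 0.121) and Hmox1 (0.64, FDR 0.125) no longer passed.

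**Figure D3:**
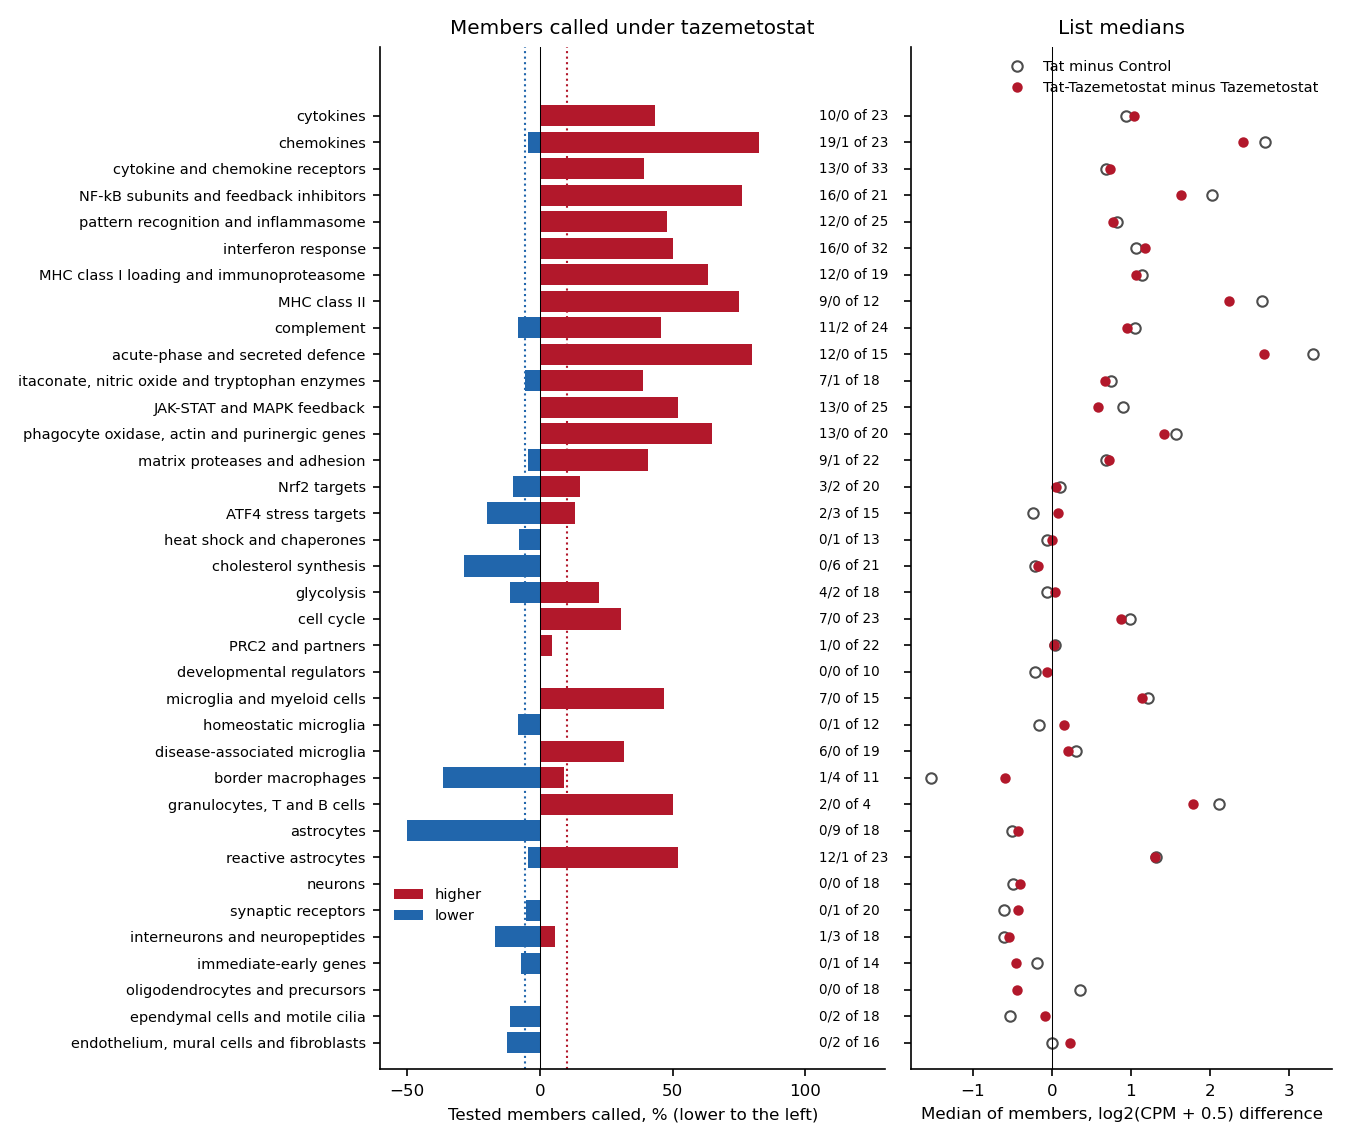
Left, share of tested members of the 36 lists called higher (red) or lower (blue) with Tat under tazemetostat, with counts as higher/lower of tested, and dotted lines at the shares over all genes (10.4% and 5.63%). Right, median difference of each list with tazemetostat (filled) and without a compound (open). The acute-phase, chemokine and MHC class II lists have the highest medians (2.68, 2.42 and 2.25).

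Most genes of the complex that tazemetostat targets were not called. Ezh2 stood at 12.7, 15 and 19 CPM in the Tazemetostat libraries and at 15.2, 17.5 and 15.2 CPM in the Tat-Tazemetostat libraries, groups that overlap (0.05 ± 0.21, FDR 0.89). Of 22 genes of PRC2 and its partners 1 was higher and 0 lower (median 0.02). The raised one was Eed, the subunit that binds the mark, at 28.5, 23.7 and 23.2 CPM without Tat and 32.6, 32.7 and 31.9 CPM with it (0.36, FDR 0.00964). Suz12 (0.17), the alternative catalytic subunit Ezh1 (0.12) and the demethylases Kdm6a (0.18) and Kdm6b (−0.03) did not pass. Of 44 developmental regulators that PRC2 silences in other tissues 10 were expressed enough to be tested, and 0 of them were called. Tazemetostat alone against Control gave 0 calls by limma, with 576 genes at an unadjusted p below 0.05. Same-numbered Tazemetostat and Control libraries deviated together, and in a fit to these 2 groups alone, blocked on the replicate number, 13 genes passed by limma (11 higher, 2 lower) and 2792 had an unadjusted p below 0.05. In a fit to all 48 libraries with the block 0 passed and 838 had such a p. The transcript of a drug's target does not report the activity of the enzyme.

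Without a compound, Tat raised 2318 genes (14.6%) and lowered 1064 (6.7%). With each library rescaled to one common sum the split was 1697 higher and 1746 lower, and with quantile normalization 1869 and 1552. The 2 contrasts share no library, but they cannot be taken as independent. Deviations of same-numbered libraries correlated between Tazemetostat and Control (0.655, 0.454 and 0.814). They also did between Tat-Tazemetostat and Tat for replicates 2 and 3 (0.702 and 0.565). Of the genes raised under tazemetostat 1389 were also raised without it, which is 83.7% of the former and 59.9% of the latter, 603 were lowered in both (67.4% and 56.7%), and 0 were called in opposite directions. Across all genes, which are not independent, the 2 differences had a Pearson correlation of 0.93. The 2318 genes that Tat raised without a compound had a median difference of 0.69 there and 0.52 under tazemetostat, and the reverse choice, the 1659 genes raised under tazemetostat, gave 0.73 there and 0.78 without a compound. For raised genes the median was thus smaller under tazemetostat by both choices, in the second by little beside the spread of the 3 libraries given below. Whether these gaps hold under another normalization was not tested. With each library rescaled to one common sum, the median over all genes moved from 0.000319 to −0.0391 under tazemetostat. Without a compound it moved from 0.00746 to −0.072. For lowered genes the median was not smaller under tazemetostat by both choices. The 1064 genes lowered without a compound had a median of −0.63 there and −0.48 under tazemetostat. The 895 genes lowered under tazemetostat had −0.62 there and −0.54 without a compound. The 3 Tat-Tazemetostat libraries had medians of 0.46, 0.69 and 0.40 over the 2318 genes. Without Tat replicate 2 or Control replicate 1 the calls without a compound numbered 1830 or 2071.

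**Figure D4:**
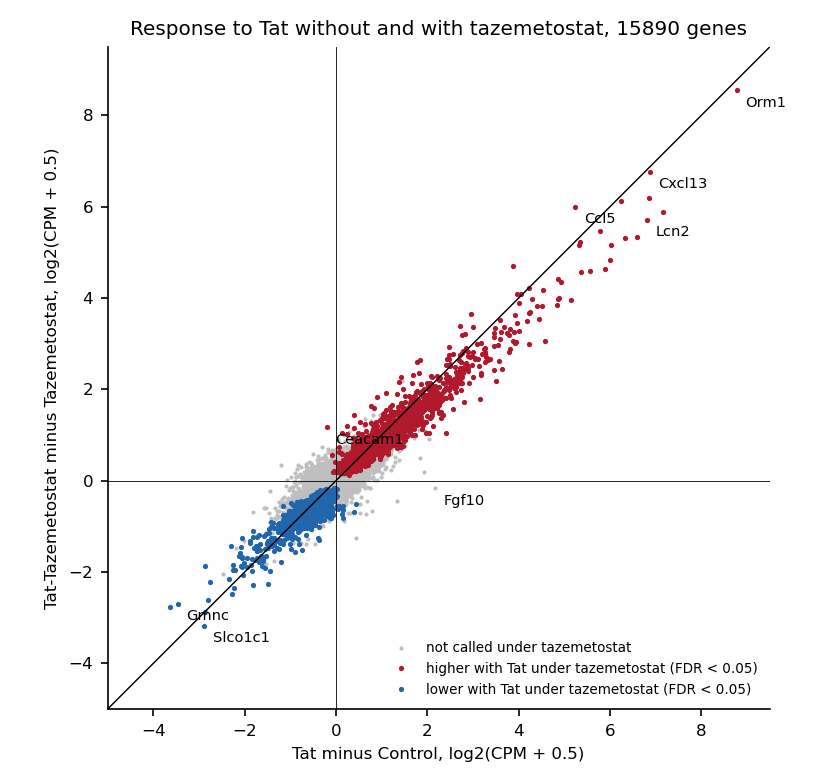
Difference with Tat under tazemetostat (vertical) against the difference with Tat without a compound (horizontal), both on the log2(CPM + 0.5) scale, for 15890 genes, with the line of equal response. Genes called under tazemetostat are coloured, and they lie along the line, from Slco1c1 (−3.17) to Orm1 (8.55).

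The difference between the 2 responses was tested for each gene. By limma 0 genes passed (0%), and 271 genes (1.71%) had an unadjusted p below 0.05. That is less than the share of 0.05 that would fall there on average if no gene differed. Why it was lower was not tested. The intervals are wide. Over all genes the 95% interval of the difference reached a median of 0.48 log2 units to either side, and over the 758 genes called under tazemetostat at 2-fold or more it reached 1.01. Of these 758 genes the interval lay within 1 log2 unit of 0 for 146 and within 2 units for 675. A gene that misses the threshold is thus not shown to respond alike. For Orm1 the response under tazemetostat differed by −0.23 (95% interval −2.02 to 1.56), for Cxcl13 by −0.11 (−1.63 to 1.41), for Ccl20 by −1.28 (−2.82 to 0.27), for Lcn2 by −1.11 (−3.38 to 1.16) and for Acod1 by −0.12 (−2.49 to 2.25).

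The 5 smallest p-values of the difference belonged to Fgf10, Fos, Mir1893, Ceacam1 and Mirlet7d, and all 5 failed the correction. Fgf10, a fibroblast growth factor, was at 1.38, 1.52 and 0.499 CPM in Control and 5.02, 8.69 and 6.43 CPM in Tat, and at 5.96, 1.93 and 1.68 CPM in Tazemetostat and 2.93, 1.07 and 4.01 CPM in Tat-Tazemetostat. The groups were apart without the compound and overlapped with it, at a difference of −2.34 (−3.33 to −1.35; unadjusted limma p 2.89e-05, FDR 0.46). Fos, an early transcription factor of active neurons and stimulated glia, was at 34, 29.5 and 22.2 CPM in Control and 42.5, 38.4 and 32.2 CPM in Tat, and went from 49.6, 50.6 and 50.3 CPM to 31.6, 26.8 and 35 CPM under tazemetostat. Its difference was −1.09 (−1.63 to −0.56; limma FDR 1). Ceacam1, an adhesion receptor, was between 0.179 and 0.507 CPM in Tazemetostat and between 1.31 and 1.55 CPM in Tat-Tazemetostat (1.18, FDR 0.000993), and Control and Tat libraries overlapped, for a difference of 1.37 (0.67 to 2.08). Over all genes 53.4% had a response under tazemetostat below that without it, at a median of −0.01, and in 22 of the 36 lists more than 50% of the tested members did. The lists with the highest counts were the oligodendrocyte genes, with 18 of 18, and the JAK-STAT and MAPK feedback genes, with 24 of 25, of which 0 and 3 had an unadjusted p below 0.05. Other lists lay the other way, with 2 of 18 ependymal genes, 2 of 15 ATF4 targets, 3 of 18 neuronal markers and 2 of 11 border macrophage genes below. The oligodendrocyte sums varied within groups, from 1093 to 3528 CPM in Tat and from 627 to 1813 CPM in Tat-Tazemetostat, with the lowest in replicate 2.

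**Figure D5:**
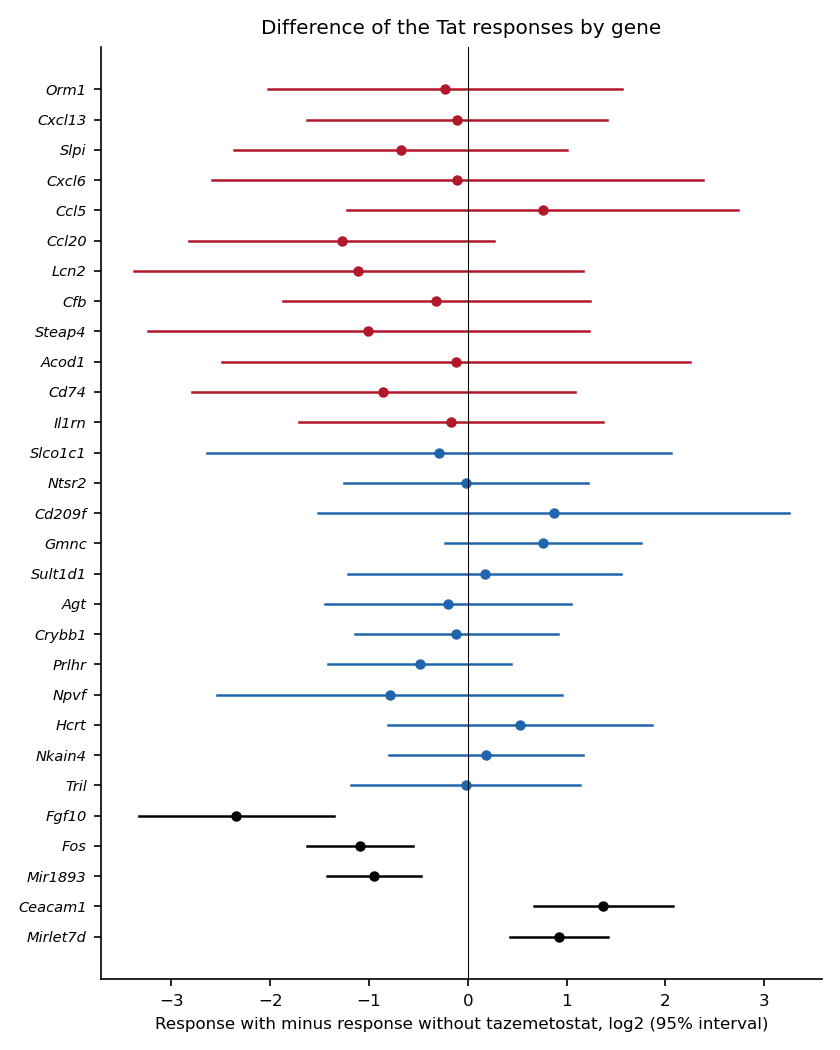
Response to Tat under tazemetostat minus the response without a compound, on the log2 scale, with 95% intervals, for the 12 largest rises (red), the 12 largest falls (blue) and the 5 genes with the smallest p of the difference (black). The intervals of the red and blue genes all cross 0, and those of the black genes do not, from Fgf10 (−2.34) to Ceacam1 (1.37), although none passed the correction.

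The response under tazemetostat was also set against that under senicapoc, a potassium channel blocker, and amlexanox, an inhibitor of the kinases Tbk1 and Ikbke, which share no library with it. Doses differ between the compounds, and the values below are not a ranking. Against senicapoc 0 genes passed by limma and 394 (2.48%) had an unadjusted p below 0.05. Against amlexanox 0 passed, with the smallest FDR at 0.0502, and 2543 genes (16%) had an unadjusted p below 0.05. Without Amlexanox replicate 1 the second count of calls was 1081, and without Tazemetostat replicate 1 it was 226. The response of Orm1 to Tat was 8.55 under tazemetostat, 7.94 under senicapoc and 7.99 under amlexanox. The response of Ccl5 was 6.00, 3.76 and 3.26 in the same order, and that of Gmnc −2.69, −2.32 and −0.62. The groups without Tat also differed. Gmnc averaged 14.95, 12.78 and 3.45 CPM without Tat in this order, and 1.88, 2.07 and 1.63 CPM with it. Ccl5 averaged 0.651, 3.08 and 2.66 CPM without Tat, and 76.5, 27.1 and 22.1 CPM with it.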

How the data were processed

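RNA of 48 cultures in 16 groups of 3 was sequenced from poly(A) RNA as stranded paired-end libraries. Per the labels and the study's methods, the authors trimmed reads with Trim Galore 0.4.5, aligned them with STAR 2.7.2, counted them per gene with featureCounts of Subread 1.5.3 and normalised them in edgeR. The sources name different rat builds, so no coordinate comes from the files. The deposited values are a signal of normalised CPM that does not sum to 1000000 (930400 to 1046900 per library). Whole reads came back within 0.02 reads for only 84.3% to 87.3% of values, so no count model was used. The deposited fold changes, p-values and group means of the authors' own comparisons were not used.

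Values were taken as log2(CPM + 0.5) over genes that reached 0.5 CPM in 3 or more libraries, and fitted with limma 3.58.1 (R 4.3.3, trended variance, 16 group means, all 48 libraries). Tests were two-sided with Benjamini-Hochberg FDR below 0.05, and errors are SE. The 48 libraries held 17.5 to 29.1 M reads by the smallest step between values. Intervals are 95% intervals from limma. Genes were named by rule: the 12 largest rises and falls that passed with a mean of at least 1 CPM in the higher group and no overlap, the leading and the nearest uncalled members of each list, the 5 smallest p of the difference, the 5 smallest FDR and a fixed set of tazemetostat, Nrf2 and purinergic genes. The few others named were chosen after their values were seen. The members and lists were chosen with earlier results of these data known. Promoters were RefSeq's on GRCr8, matched by symbol. The counts without 1 library were given prominence after seeing the data. A few genes are not reported here.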

Additional observations from a re-analysis of the deposited data

Results flagged for a closer look

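In 4 of the named genes each Tat-Tazemetostat library lay on one side of the Tazemetostat mean and each Tat library on the other side of the Control mean. These were Fos, with a difference of the responses of −1.09 (unadjusted limma p 0.000203), Dnajb1, a chaperone of the heat shock response, at 0.20, and the rows named Mir1893 (−0.95) and Mirlet7d (0.93). The difference was tested by limma, and each of the 4 had an FDR of 1. Dnajb1 was at 76.5, 74.1 and 71 CPM in Tazemetostat, 77 to 79.4 CPM in Tat-Tazemetostat, 70.5 to 81.2 CPM in Control and 67.5 to 70.2 CPM in Tat, so that neither pair of groups overlapped, at differences smaller than those of the other 3 genes. The rows of Mir1893 and Mirlet7d count reads over a precursor annotation in poly(A) RNA and do not report a mature miRNA. They did not exceed 1.57 and 0.613 CPM in the 12 libraries of these groups. Fos fell under tazemetostat at FDR 0.00983, which without Tat-Tazemetostat replicate 2 became 0.0866.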

How the results depend on the processing

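Of the values of 202 named genes under tazemetostat, 3783 of 4026 under the alternatives stayed on the same side of the threshold in the same direction, 171 lost the call, 72 gained it and 0 reversed. Another 10 changed sign without a call in either fit. Of the values of the difference between the responses, 5246 of 5246 stayed uncalled, and 414 of these changed sign. List medians kept their sign in all but 24 of 720 values. Counts of calls under tazemetostat (2554) fell to 809 in a fit to the 6 libraries compared, to 1349 in a fit to 12 libraries and to 758 with a minimum absolute log2 difference of 1, and leaving out 1 library gave 1022 to 2941. Without a compound (3382) the same 3 settings gave 1252, 2191 and 1015, and leaving out 1 library 1830 to 3857. The smaller fits have fewer samples. Calls of the difference from the amlexanox response (0) were 9 with a pseudocount of 0.1 CPM, 1 with no filter, 8 with a minimum of 2 CPM, 10 with values rescaled to one common sum, 12 with median ratio rescaling, 10 with quantile normalization, and 0 to 1081 without 1 library. The cause was not tested. Calls of the differences from the response without a compound and under senicapoc were 0 in each alternative run. The pseudocounts of 0.1 and 1 CPM, the filters, the rescalings, the untrended fit and vooma weights left the counts under tazemetostat between 2254 and 2585.

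The replicate numbers did not pair the samples of either Tat contrast: deviations of same-numbered libraries correlated at 0.195, 0.149 and −0.448 between Tat-Tazemetostat and Tazemetostat and at −0.103, 0.302 and −0.567 between Tat and Control. They did correlate between Tazemetostat and Control (0.655, 0.454 and 0.814) and, for replicates 2 and 3, between Tat-Tazemetostat and Tat (0.00894, 0.702 and 0.565). The block was therefore also run for Tazemetostat alone, a choice made after seeing the data: calls went from 0 to 13 with the replicate block in the groups compared alone. The difference from the response without a compound had 0 calls with the block in both fits, with 371 and 260 genes at an unadjusted p below 0.05. With the replicate block over 48 libraries the calls under tazemetostat numbered 3392 and those without a compound 4253, with 79 for the difference from amlexanox. With the replicate block in the compared groups alone they numbered 446 and 595. Depth limits the low genes, since 0.5 CPM stood for as few as 8.57 reads.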
